A study of Mus musculus with 4 samples.

Results

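The genes described here encode the proteins of the cytosolic ribosome. They were chosen by symbol, as every gene named Rpl or Rps followed by a number, together with Rplp0, Rplp1, Rplp2 and Rpsa, without rows marked as pseudogenes and without the S6 kinases. This gave 86 of the 32285 genes in the count matrices, of which 46 encode large subunit proteins, 31 small subunit proteins and 8 are paralogues of another member. The remaining one, Rps19bp1, fits the symbol rule but encodes a protein that binds RPS19 and is not part of the ribosome. A member is called measured where it reached 5 CPM (UMI counts scaled to a common library total) in at least 1 of the groups compared. Over all cells 83 of the 86 did, and these also reached 50 CPM, while Rpl39l and Rpl3l stayed below 5 CPM and Rpl10l had 0 UMIs (unique molecular identifiers, 1 for each captured RNA molecule) in all cells used. The 5 rows marked as pseudogenes, which were left out, held 0.0103% of UMIs.

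Organoids were grown from mammary fat pads freed of lymph nodes, taken from virgin mice of 8 to 9 weeks, and cells were profiled with 3' single-cell RNA sequencing. The strain, genotype, number of animals, time in culture and make of the matrices were not given in the sources used here. There were 4 culture conditions, with 1 culture of each: Matrigel (MATR), a soft matrix (SOFT), collagen (COL1) and a stiff matrix (STIFF). Cells carried hashtag antibodies, and MATR and SOFT shared 1 channel of the instrument while COL1 and STIFF shared the other, so comparisons across the channels cannot tell channel and condition apart. The labels do not say which hashtag marked which condition. The pairing used here follows how the deposited matrices are named, and exchanging the tags within a pool would invert that pool's comparison.

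After filtering, 1563 cells were called COL1, 2451 STIFF, 2333 MATR and 1941 SOFT, which together held 157133501 UMIs. Median depth per cell ranged from 11353 UMIs in COL1 to 16843 UMIs in STIFF. Barcodes without a hashtag call made up 54.9% of the COL1 and STIFF pool and 42.7% of the MATR and SOFT pool, and this share ranged over classes from 0.442% in immune-like to 79.5% in HR-negative luminal-like cells. The pools shared 22 barcodes. Cells were clustered without the 86 genes, and clusters were named from marker genes as basal-like, hormone receptor (HR)-positive luminal-like, HR-negative luminal-like, fibroblast-like and immune-like. In the class that bears its name, each of these marker lists summed to at least 6365 CPM in every condition. The HR-positive list summed to 938 to 2016 CPM in basal-like and 401 to 604 CPM in HR-negative luminal-like cells, the HR-negative list to 1588 to 2986 CPM in basal-like cells and the basal list to 2232 to 3759 CPM in fibroblast-like cells. The HR-positive list also summed to 1299 to 2668 CPM in immune-like cells, and the fibroblast list to 1127 to 1676 CPM in HR-positive luminal-like cells. In fibroblast-like cells the HR-negative list summed to 1262 to 2198 CPM and the immune list to at most 1665 CPM. The part of such mixed markers in the results was not tested. With 1 culture per condition no test between conditions was possible, and every interval below is an exact 95% interval that covers counting error only. Series of 4 values are given in the order COL1, STIFF, MATR and SOFT.

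Ribosomes are built from a small and a large subunit, each a ribosomal RNA core dressed with proteins that are mostly present in equal numbers, so their genes are generally expressed together at high levels. Their messenger RNAs begin with a run of pyrimidines at the 5' end (the TOP motif), through which mTOR signalling sets how strongly they are translated. In the mammary gland, basal cells contract and hold stem cell activity, HR-positive luminal cells sense oestrogen and progesterone, and HR-negative luminal cells hold the progenitors of milk-secreting cells.

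The start regions of members that the results below turn on are printed to show how the members compare at the promoter. RefSeq sequences of the GRCm38.p6 assembly, which is the mm10 build named for these files, had entries for 66 of the 86 members. Each sequence runs 5' to 3' on the gene's strand from 60 bases before to 20 bases after the first listed transcription start, and capitals mark CTTCCG or its reverse complement CGGAAG, the core that ETS family factors such as GABPA recognise. Rpl37a and Rpsa are shown because they were among the members that differed most between basal-like and HR-positive luminal-like cells, Rpl36a with Rpl36al and Rps27 with Rps27l because the members of these pairs differed from each other, Rpl41 because it varied little, Rpl38 because it differed between channels, and Rpl39l because of the 5 classes only fibroblast-like cells held more than 6 UMIs of it in any condition.
Rpl37a: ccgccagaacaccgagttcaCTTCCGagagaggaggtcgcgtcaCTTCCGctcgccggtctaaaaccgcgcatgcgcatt
Rpsa: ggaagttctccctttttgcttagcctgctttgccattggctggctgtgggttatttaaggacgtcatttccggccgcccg
Rpl36a: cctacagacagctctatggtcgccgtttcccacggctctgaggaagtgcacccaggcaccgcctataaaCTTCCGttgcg
Rpl36al: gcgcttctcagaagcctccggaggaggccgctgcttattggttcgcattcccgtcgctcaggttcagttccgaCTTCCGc
Rps27: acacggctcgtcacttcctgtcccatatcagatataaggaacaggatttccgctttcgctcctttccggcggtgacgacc
Rps27l: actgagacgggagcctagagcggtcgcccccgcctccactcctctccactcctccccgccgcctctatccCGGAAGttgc
Rpl41: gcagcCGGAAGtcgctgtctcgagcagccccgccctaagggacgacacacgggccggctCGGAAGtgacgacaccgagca
Rpl38: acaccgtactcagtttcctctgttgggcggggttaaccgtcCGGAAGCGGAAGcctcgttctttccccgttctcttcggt
Rpl39l: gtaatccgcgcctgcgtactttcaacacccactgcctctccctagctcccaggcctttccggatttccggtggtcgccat
These windows lie at chr1:72711200-72711279 on the plus strand for Rpl37a, chr9:120127706-120127785 on the plus strand for Rpsa, chrX:134585594-134585673 on the plus strand for Rpl36a, chr12:69184048-69184127 on the minus strand for Rpl36al, chr3:90213629-90213708 on the minus strand for Rps27, chr9:66946026-66946105 on the plus strand for Rps27l, chr10:128549149-128549228 on the minus strand for Rpl41, chr11:114668520-114668599 on the plus strand for Rpl38 and chr16:10170168-10170247 on the plus strand for Rpl39l. Each window spans the end of the promoter and the first bases of the transcript.

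Over the 300-base windows of the table (250 bases before the start and 50 from it), CTTCCG on either strand was found in 66.7% of the 66 members and in 18.8% of all 27025 genes with an entry. A pyrimidine tract, searched on the gene's strand as a C followed by at least 6 further C or T within 25 bases of the start, was found in 56.1% of members and 25.6% of all genes. The bases CTTCC can count in both searches. Of the 8 paralogues and Rps19bp1, 9 genes that all had an entry, 4 held the motif and 4 held the tract. Rpl36a and Rpl36al both held the motif in the printed window. The relation of the motif to RNA levels was not tested. A match of letters is a description of the sequence and not a mapped binding site.

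The members together made up 19.2% of the UMIs of cells called for 1 condition. Over all barcodes kept after filtering, with or without a hashtag call, it was 20.1% in the COL1 and STIFF pool and 20.9% in the MATR and SOFT pool. By condition the share was 19.999%, 18.2%, 19.8% and 19.2%. Basal-like and HR-negative luminal-like cells were high while HR-positive luminal-like cells were low in all 4 conditions. These differences from HR-positive luminal-like cells were much larger than those between conditions. Other classes lay closer together, and fibroblast-like over immune-like ratios of 1.01 to 1.11 were no larger than some ratios between conditions. In basal-like cells the share was 26.7%, 24.0%, 26.4% and 25.1%. HR-negative luminal-like cells followed with 24.1%, 21.4%, 25.5% and 25.2%. HR-positive luminal-like cells had 15.3%, 14.2%, 15.2% and 15.5%. Fibroblast-like cells had 19.5%, 17.6%, 18.1% and 17.9%, and immune-like cells 17.5%, 16.1%, 17.9% and 17.4%.

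**Figure D1:**
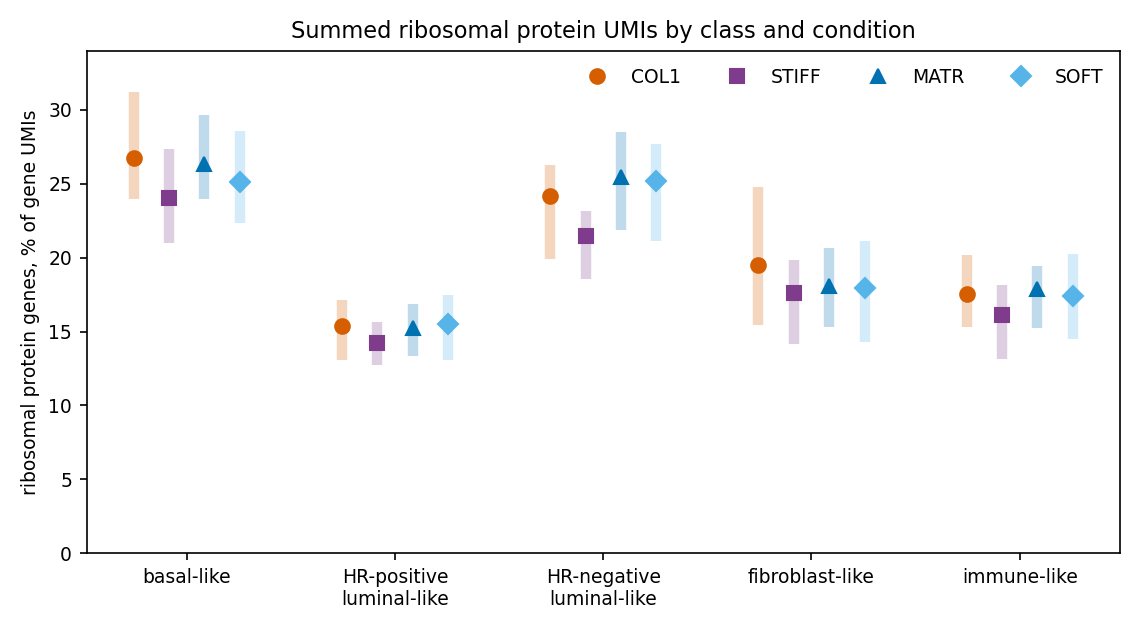
Summed UMIs of the 86 ribosomal protein genes as a percentage of all gene UMIs (y axis) in 5 cell classes (x axis), with 1 point per condition and a shaded bar from the lower to the upper quartile over single cells. Basal-like points lie between 24.0% and 26.7%, HR-positive luminal-like points between 14.2% and 15.5%, and STIFF is the lowest point in each class.

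The basal-like share was 1.74 times the HR-positive luminal-like share in COL1, and 1.69, 1.73 and 1.62 times in the other 3 conditions. HR-negative over HR-positive luminal-like ratios were 1.57, 1.504, 1.67 and 1.62. Basal-like and HR-negative luminal-like cells differed less, with ratios of 1.11, 1.12 and 1.03 in COL1, STIFF and MATR, and 0.997 (0.994 to 1.001) in SOFT, where the interval spans 1. The middle ranges of single cells did not overlap between the high and the low class. The lower quartile of basal-like cells was 21.0% in STIFF, the lowest of the 4 conditions, and the highest upper quartile of HR-positive luminal-like cells was 17.4%, in SOFT. A share sets these genes against all other RNA of the cell, so more ribosomal protein RNA and less of other RNA cannot be told apart.

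Among the single members, 54 of the 83 measured were at least 1.5-fold higher in basal-like than in HR-positive luminal-like cells in all 4 conditions and 0 were lower. Over all genes of at least 5 CPM, 9.12% were called higher and 7.51% lower by this rule. The median log2 ratio of the members, as the mean of the 4 conditions, was 0.76, and that of all genes tested was -0.04. For HR-negative over HR-positive luminal-like cells the counts were 40 higher and 0 lower, against 7.85% and 11.8% of all genes, with a median of 0.67 for the members and -0.07 for all genes. Between basal-like and HR-negative luminal-like cells 0 of 83 passed in either direction, against 7.52% of all genes higher and 4.15% lower, with a median of 0.09 for the members and 0.04 for all genes. Scaling with trimmed means of M-values (TMM), which was added after seeing the data, gave 49, 48 and 0 members higher in these 3 contrasts and 0 lower. All log2 ratios of single genes were computed after adding 10 CPM.

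Rpl37a, a zinc finger protein of the large subunit, showed the largest difference between basal-like and HR-positive luminal-like cells. It measured 4219, 3422, 3438 and 3267 CPM in basal-like cells, against 1766, 1561, 1417 and 1505 in HR-positive luminal-like cells. The lowest basal-like value was well above the highest HR-positive one, and the log2 ratio ranged from 1.11 to 1.27 over the conditions, with a mean of 1.19. Rpl32, a large subunit protein named after its values were seen, had a mean log2 ratio of 1.19 as well. Rpsa, the small subunit protein also known as a laminin receptor, measured 4042, 3747, 3930 and 3721 CPM in basal-like cells and 1783, 1581, 1659 and 1840 CPM in HR-positive luminal-like cells. Its mean log2 ratio was 1.17, and again the ranges of the classes did not overlap.

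The proteins of the stalk, which recruits translation factors to the large subunit, were higher in basal-like cells by less. Mean log2 ratios over HR-positive luminal-like cells were 0.76 for Rplp0, 0.90 for Rplp1 and 0.72 for Rplp2. The 5S particle proteins Rpl5 and Rpl11, which hold the 5S ribosomal RNA and can bind MDM2, had 0.48 and 0.51 and so lay below the median of the members. Rps27a, made as a fusion with ubiquitin, had 0.82. Large subunit UMIs were 1.35 to 1.39 times small subunit UMIs in HR-positive luminal-like cells and 1.22 to 1.28 times in the other 4 classes, with no overlap over the conditions.

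A small group of members did not follow the rest. Rps27l, a paralogue of Rps27 known as a p53 target, measured 340, 417, 389 and 437 CPM in basal-like cells and 480, 517, 519 and 527 CPM in HR-positive luminal-like cells. It was thus lower in basal-like cells in each condition, with a mean log2 ratio of -0.36, where the median member had 0.76. Rpl36al, the paralogue of Rpl36a, had -0.22 in basal-like and -0.17 in HR-negative luminal-like cells, both against HR-positive ones. Rps19bp1, which is no ribosomal protein, had -0.08, and Rpl7l1, a paralogue of Rpl7 involved in ribosome assembly, 0.08. Rpl41, the shortest ribosomal protein, was nearly level, with 3603, 3503, 3609 and 3512 CPM in basal-like, 3274, 3272, 3239 and 3197 CPM in HR-positive and 3274, 2909, 3281 and 3202 CPM in HR-negative luminal-like cells.

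**Figure D2:**
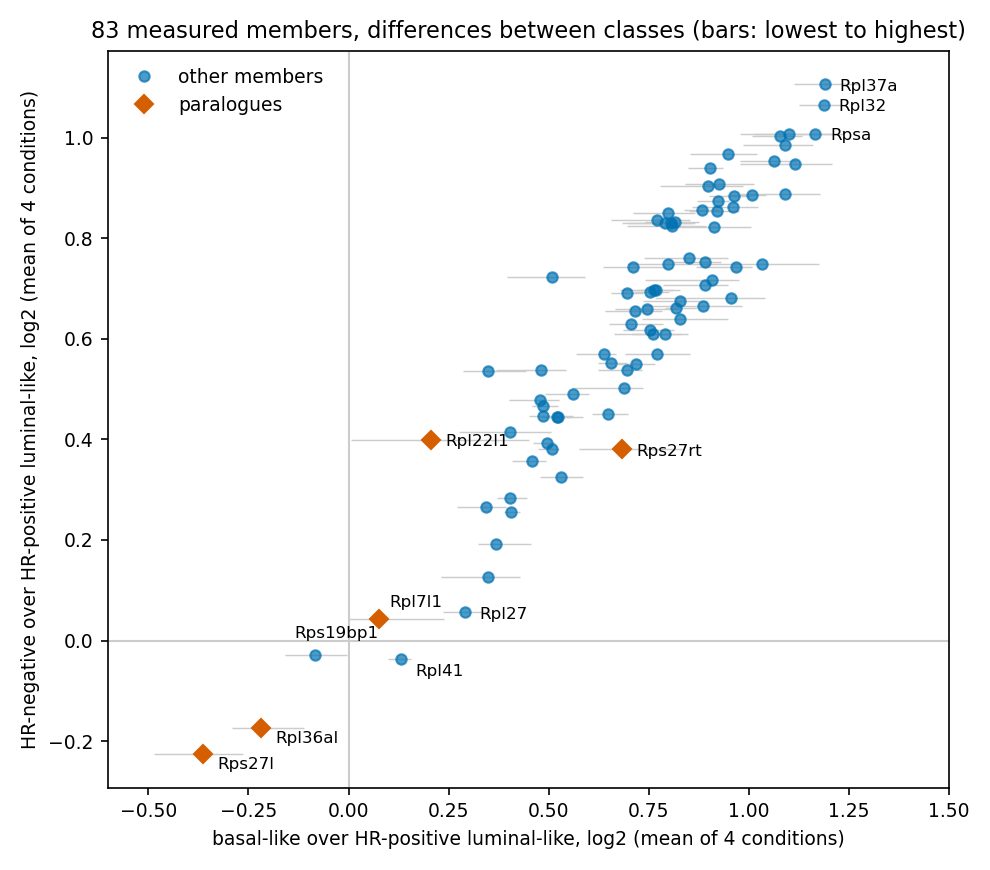
Log2 ratio of basal-like over HR-positive luminal-like cells (x axis) against that of HR-negative over HR-positive luminal-like cells (y axis) for the 83 measured members, as means of 4 conditions with bars from the lowest to the highest condition on the x axis. The axes share the HR-positive cells; Rps27l and Rpl36al lie below 0 on both, and Rpl37a lies at 1.19 and 1.11.

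Expressed as a share of the members' own UMIs, which does not depend on genes outside the members, a few genes varied most between classes. Rps27l made up 0.34% of these UMIs in HR-positive luminal-like cells (mean of 4 conditions) and 0.16% in basal-like cells, a ratio of 2.18. Rpl36al followed with a ratio of 1.97 and Rps19bp1 with 1.81, both highest in HR-positive and lowest in basal-like cells. Rpl41 had 1.63, highest in HR-positive and lowest in HR-negative luminal-like cells. The sum of all members was lowest in HR-positive luminal-like cells, so a gene nearly level in CPM, such as Rpl41, has a higher share there. Rps29, a small zinc-binding protein of the small subunit, had 1.63 and was highest in immune-like cells (1.68% to 2.47% over the conditions) and on average lowest in basal-like cells (1.02% to 1.54%), so the ranges of these classes did not overlap. At the other end Rpl27a, which was named after its values were seen, had a ratio of 1.04.

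Between paralogues, the pair Rpl36a and Rpl36al shifted most in percentage points. In HR-positive luminal-like cells Rpl36al held 57.4%, 58.7%, 60.5% and 58.4% of the pair's UMIs. In basal-like cells it held 33.6%, 37.8%, 36.1% and 37.7%, and in HR-negative luminal-like cells 38.2%, 39.8%, 38.3% and 38.6%. These 3 classes did not overlap, and fibroblast-like and immune-like cells lay between the HR-positive class and the others at 44.9% to 51.5%. The parent gene differed more than the paralogue. Rpl36a measured 1463, 1282, 1420 and 1331 CPM in basal-like cells and 671, 593, 630 and 667 CPM in HR-positive luminal-like cells, whereas Rpl36al measured 739 to 805 CPM and 841 to 963 CPM in these classes.

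Rps27l held 22.3% to 28.6% of the UMIs of Rps27 plus Rps27l in HR-positive luminal-like cells, 8.22% to 13.8% in basal-like and 12.7% to 16.6% in HR-negative luminal-like cells. COL1 was the lowest condition in all 5 classes. In COL1 fibroblast-like cells it held 18.7% (17.7% to 19.6%) and in STIFF ones 28.1% (27.2% to 29.1%). Rps27 itself differed between the channels, as described below, so these shares compare conditions only within a channel. Rpl22l1, the paralogue of Rpl22, held 26.1% to 32.8% of its pair in basal-like cells and 31.2% to 39.6% in the other 4 classes. Rpl7l1 held 1.91% to 4.04% of its pair and the retrogene Rps27rt 2.36% to 4.37% over all classes and conditions. The transcripts of such pairs are similar and the deposited counting could assign reads of one to the other, so these shares are uncertain in level, most of all for Rps27rt.

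**Figure D3:**
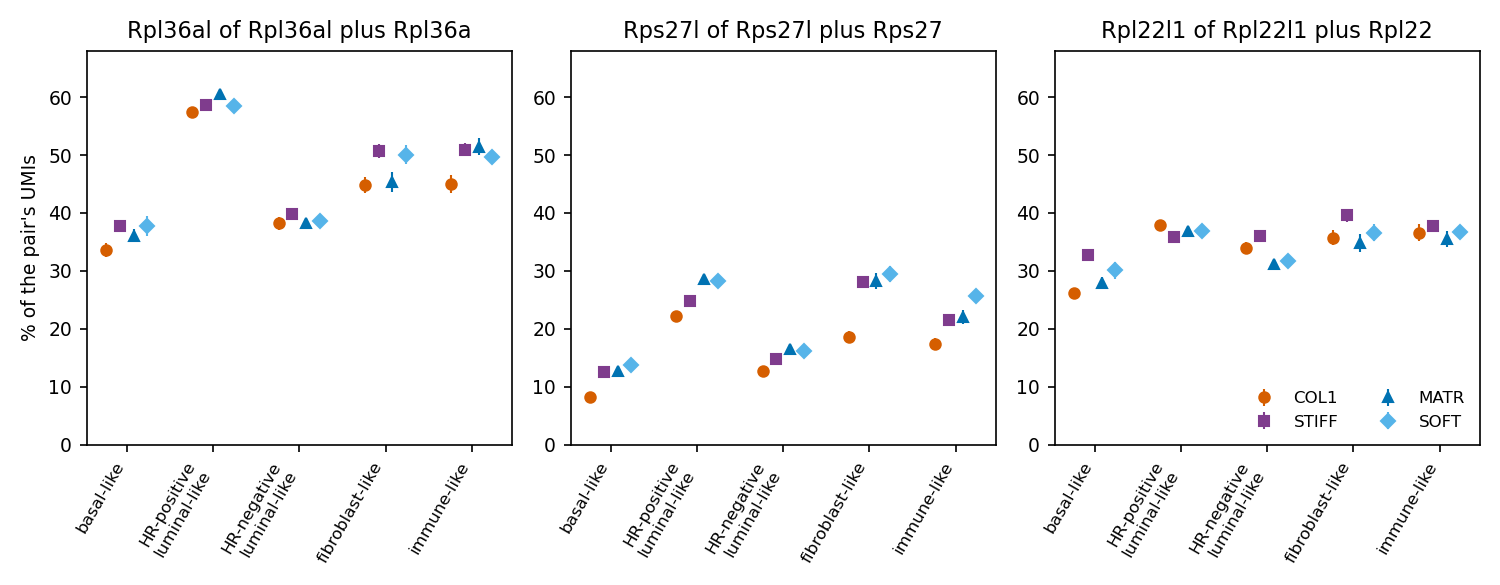
Share of a pair's UMIs held by the paralogue (y axis, percent) for Rpl36al, Rps27l and Rpl22l1 in 5 classes (x axis), with 1 point per condition and exact 95% intervals for counting error. Rpl36al lies between 57.4% and 60.5% in HR-positive luminal-like cells and between 33.6% and 37.8% in basal-like cells.

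The remaining paralogues were found in few cells. Rpl39l, a paralogue of Rpl39 best known from testis, had 48, 99, 38 and 105 UMIs in fibroblast-like cells, which is 17.98, 25.9, 18.7 and 48.2 CPM. In basal-like cells it had 0 UMIs in each condition, and none of the other 3 classes exceeded 6 UMIs in a condition. After thinning each cell to 5000 UMIs, 5.41% of 148, 12.4% of 145, 7.14% of 98 and 18.5% of 81 fibroblast-like cells held a UMI (11.4%, 25.2%, 16.0% and 34.1% of cells without thinning, at median depths of 14066, 20418, 17281 and 25344 UMIs). In basal-like cells the share was 0 of 203, 211, 185 and 78 thinned cells, with upper interval limits of 1.73% to 4.62% and median depths of 8646 to 19666 UMIs. Depth differed between the conditions, and its part in the unthinned shares was not tested. Rpl3l, a paralogue of Rpl3 best known from muscle, had 13, 21, 10 and 29 UMIs in immune-like cells, or 3.87 to 6.10 CPM, and at most 3 UMIs in any other class and condition. Rpl10l had 0 UMIs throughout, which allows up to 3 UMIs.

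Other genes of translation did not all follow the ribosomal proteins between the classes. Of all genes, 9.12% were at least 1.5-fold higher in basal-like than in HR-positive luminal-like cells in all conditions and 7.51% lower. Of 15 other TOP and ribosome-associated genes, 8 were at least 1.5-fold higher in basal-like than in HR-positive luminal-like cells in all conditions and 0 lower, with a median log2 ratio of 0.80. The largest was Gas5, a TOP-containing host gene of small nucleolar RNAs, with 1.28. Of 25 translation factors, 3 were higher and 1 lower, with a median of 0.06 and a range from 0.86 for the elongation factor Eef1b2 to -0.66 for the cap-binding factor Eif4e. Of 29 measured ribosome biogenesis genes 1 was higher, the regulator Myc with 1.36, and the median was 0.00. The 78 proteins of the mitochondrial ribosome had a median of -0.14 with 1 higher and 0 lower. Of 11 measured p53 targets 1 was higher and 3 lower, with a median of -0.29 and the lowest value, -1.81, for the cell cycle inhibitor Cdkn1a. The counts of 1 in these lists, and the 3 translation factors that were higher, were near or under the background.

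Between conditions, the STIFF value was the lowest of the 4 shares in each of the 5 classes, although SOFT held only 81 basal-like and 82 fibroblast-like cells. This held also when tags were called by a relative rule (each tag over its own background, the larger at least 2 times the smaller). It held too when the 86 genes were allowed into the clustering, but only 1 of them was then among the variable genes. That alternative therefore says little about the members' part in the clustering. COL1 over STIFF, both from 1 channel, had a share ratio of 1.097 (1.096 to 1.098) over all singlets. Within classes it was 1.112 in basal-like, 1.077 in HR-positive, 1.127 in HR-negative luminal-like, 1.110 in fibroblast-like and 1.088 in immune-like cells. Under the relative tag rule the log2 ratio was 0.04 in place of 0.13 over all singlets, 0.07 in place of 0.15 in basal-like and 0.08 in place of 0.17 in HR-negative luminal-like cells, so the size of these values depends on how tags are called. It was 0.10 in place of 0.11 in HR-positive luminal-like cells and 0.15 and 0.12 under both rules in fibroblast-like and immune-like cells. HR-positive luminal-like cells came from 3 clusters, and in the 2 with enough STIFF cells the share was 15.1% and 13.9% in COL1 and 14.5% and 13.3% in STIFF. The third had the highest share, 17.2% in COL1, and held 164 COL1 cells but under 50 STIFF cells. The part of this cluster mix in the class ratio of 1.077 was not tested. STIFF cells were deeper than COL1 cells in every class, for example 19666 against 8646 UMIs per basal-like cell at the median. Among cells of at least 20000 UMIs, 38 to 150 per class and condition, the share was 25.4% in COL1 and 23.7% in STIFF for basal-like cells, 24.4% and 21.5% for HR-negative luminal-like cells, 15.8% and 14.3% for HR-positive luminal-like cells, 18.8% and 17.8% for fibroblast-like cells and 17.4% and 16.0% for immune-like cells. Among cells of 10000 to 20000 UMIs, which hold most HR-positive luminal-like cells of STIFF, that class had 14.5% in COL1 and 14.1% in STIFF, and the other classes, in the order above, had 26.7% and 24.5%, 23.6% and 21.3%, 19.4% and 16.9%, and 17.6% and 16.3%. STIFF was not the lowest condition in fibroblast-like cells of at least 20000 UMIs, where MATR had 17.6% and SOFT 17.57%.

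The difference was small and spread over nearly all members. Over all singlets 81 of 83 measured members were above 0 in COL1 over STIFF, with a median log2 ratio of 0.13 against -0.02 for all genes, yet 0 passed 1.2-fold higher and 0 passed it lower, where 5.22% and 3.07% of all genes did. The highest were Rps27rt with 0.24 and Rps19 and Rpl37a with 0.23. Rps19, a small subunit protein mutated in Diamond-Blackfan anaemia, measured 3162 CPM in COL1 and 2689 CPM in STIFF. The lowest were Rps27l with -0.15, Rpl7l1 with -0.04 and Rpl41 with 0.03. Rps27l measured 451 CPM in COL1 and 500 CPM in STIFF, a ratio of 0.902 (0.882 to 0.922), and was lower in COL1 in all 5 classes. Within classes, members past 1.2-fold higher in COL1 numbered 7 in basal-like cells (10.5% of all genes), 0 in HR-positive (7.09%), 5 in HR-negative luminal-like (4.97%), 8 in fibroblast-like (10.2%) and 2 in immune-like cells (8.74%), so in no class did the count stand far above the background. Members lower in COL1 numbered 1 in basal-like (12.7% of all genes), 0 in HR-positive (5.44%), 0 in HR-negative luminal-like (10.5%), 2 in fibroblast-like (17.7%) and 1 in immune-like cells (23.6%). In fibroblast-like and immune-like cells 84 members reached 5 CPM.

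MATR over SOFT, both from the other channel, had a share ratio of 1.032 (1.031 to 1.033). By class it was 0.981 (0.980 to 0.983) in HR-positive, 1.013 (1.011 to 1.015) in HR-negative luminal-like and 1.027 (1.023 to 1.030) in immune-like cells, and basal-like and fibroblast-like cells were not compared since SOFT held 81 and 82 of them. Of 83 measured members 66 were above 0, the median was 0.03, and 0 passed 1.2-fold in either direction, against 4.92% of all genes higher and 6.72% lower. The members spanned -0.10 for Rpl7l1 to 0.14 for Rpl10a, a large subunit protein near the exit site of transfer RNA. The mix of the 3 HR-positive luminal-like clusters differed between MATR and SOFT, with 810 and 298 cells in the largest. Within these clusters the share in MATR and SOFT was 14.98% and 15.6%, 14.7% and 13.8%, and 16.1% and 17.5%, so the direction was not the same in all of them. Under the relative tag rule the log2 ratio was -0.09 in place of -0.03 in HR-positive, 0.06 in place of 0.02 in HR-negative luminal-like and 0.02 in place of 0.04 in immune-like cells.

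STIFF over SOFT compares the stiff with the soft matrix, but across channels. The share ratio was 0.949 (0.948 to 0.95) over all singlets, 0.852 in HR-negative luminal-like, 0.918 in HR-positive luminal-like and 0.926 in immune-like cells. Under the relative tag rule the log2 ratio in HR-negative luminal-like cells was -0.14 in place of -0.23. Of the 3 HR-positive luminal-like clusters, the one of highest share held 367 SOFT cells and under 50 STIFF cells, and in the other two the share was 14.5% and 13.3% in STIFF against 15.6% and 13.8% in SOFT. In HR-negative luminal-like cells 75 of 83 measured members were below 0 and 42 passed 1.2-fold lower, against 9.35% of all genes. The lowest there were Rps19 and Rps16, both of the small subunit, with -0.44 and -0.43. Rps19 measured 3326 CPM in STIFF and 4510 CPM in SOFT, beside 4090 CPM in COL1 and 4432 CPM in MATR. HR-positive luminal-like cells had 11 members lower (background 7.92%), led by Rpl5 with -0.36 and Rpl10, and immune-like cells 9 (background 6.92%), led by Rps25 with -0.40. Over all singlets 2 were lower, Rpl5 and Rps15 with -0.29 and -0.28, and 4 higher, against 4.96% and 6.31% of all genes, both near or under the background. With TMM scaling the 6 became 11, and under the relative tag rule 4. Rpl5 measured 1113 CPM in STIFF and 1359 CPM in SOFT.

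In COL1 over MATR the share ratio of all members was 1.009 (1.007 to 1.010), a log2 ratio of 0.01 that was -0.03 under the relative tag rule and also without the 8 genes below, but 8 members were past 1.2-fold higher and 0 lower, against 10.3% and 4.63% of all genes, so the count was no larger than the background. They were Rps29 (log2 ratio 0.64), Rpl38 (0.47), Rps28 (0.42), Rps27 (0.40), Rps21 (0.39), Rpl37a (0.33), Rpl37 (0.32) and Rpl39 (0.27), which encode small proteins on both subunits. This group was picked from this comparison, so its other values across the channels are a description. Rps29 measured 3290 CPM in COL1 and 2895 CPM in STIFF, against 2105 CPM in MATR and 2139 CPM in SOFT. Both conditions of the first channel were above both of the second for all 8. Rps28, which had the largest log2 ratio in STIFF over SOFT (0.45), measured 2904, 2789, 2163 and 2035 CPM in COL1, STIFF, MATR and SOFT. The lowest members in COL1 over MATR were Rpl10, Rpl5 and Rpl13a, with -0.25, -0.17 and -0.16.

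**Figure D4:**
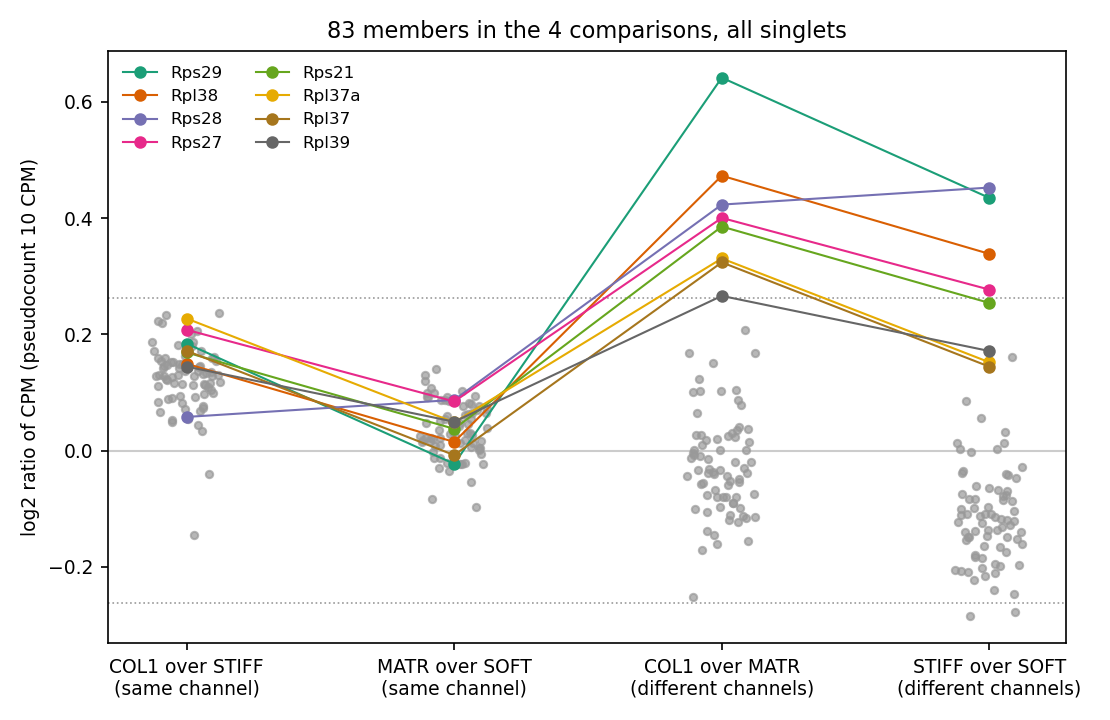
Log2 ratio of CPM (y axis) of the 83 measured members in the 4 comparisons over all singlets (x axis), with grey points for 75 members, coloured lines for the 8 members past 1.2-fold in COL1 over MATR and dotted lines at 1.2-fold. The 8 lie between 0.27 and 0.64 in COL1 over MATR and between 0.14 and 0.45 in STIFF over SOFT, and between -0.02 and 0.09 in MATR over SOFT.

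Within a channel, over all singlets, these 8 had log2 ratios within the range of the other members, with 0.06 to 0.23 in COL1 over STIFF and -0.02 to 0.09 in MATR over SOFT. As a share of all ribosomal protein UMIs they made up 11.1% in COL1 and 10.9% in STIFF but 8.48% in MATR and 8.54% in SOFT. The split appeared in each class, but the COL1 and MATR cells of the classes were among the cells from which the group was picked. Their class values therefore describe the group and give it no separate support. The lowest value of the first channel was 10.7%, in STIFF basal-like cells, and the highest of the second was 9.29%, in MATR immune-like cells. Of the single genes, 1 of the 8 was not above 0 in STIFF over SOFT of HR-negative luminal-like cells, at -0.03. Barcodes without a hashtag call showed it too, with Rps29 1.40 times as high in the COL1 and STIFF pool as in the other, Rps28 1.28 times, Rpl38 1.25 times and Rpl39 1.08 times. Channel and condition cannot be told apart for these genes.

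**Figure D5:**
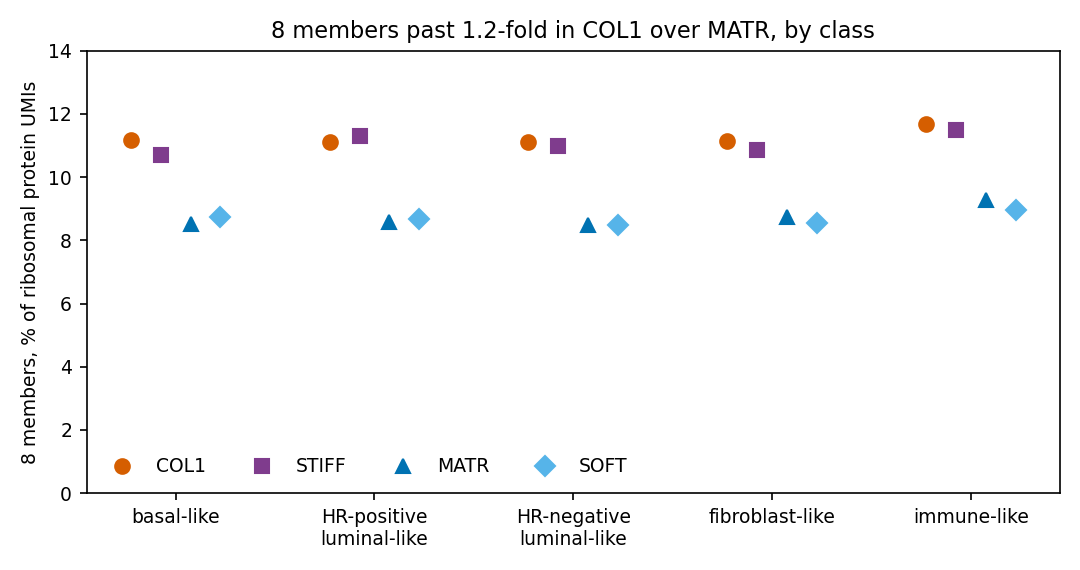
Summed UMIs of the 8 members past 1.2-fold in COL1 over MATR as a percentage of all ribosomal protein UMIs (y axis) in 5 classes (x axis), with 1 point per condition. COL1 and STIFF, from 1 channel, lie between 10.7% and 11.7% and MATR and SOFT, from the other, between 8.48% and 9.29%. The COL1 and MATR points come from cells that were used to pick the 8 members.

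Over all singlets few genes of the other lists passed 1.2-fold in COL1 over STIFF. Of all genes, 5.22% were past it higher and 3.07% lower in this comparison, beside which counts of 1 gene say little. There 1 of 25 translation factors was past 1.2-fold higher and 0 lower, with a median of 0.01, and the 78 mitochondrial ribosomal proteins had a median of -0.04 with 0 past it. The one translation regulator past it was Eif4ebp1, a repressor of cap-dependent translation that mTOR inactivates, with 195, 130, 173 and 210 CPM. It was lowest in STIFF, with log2 ratios of 0.55 in COL1 over STIFF and -0.65 in STIFF over SOFT. Of 29 measured ribosome biogenesis genes 0 were higher and 1 lower in COL1 over STIFF, Nolc1 with -0.35, at a median of -0.12. Of the 15 other TOP and ribosome-associated genes 1 was higher and 0 lower, with a median of 0.13, and of 11 measured p53 targets 0 were higher and 1 lower, with a median of -0.16.

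Within classes more of these genes passed, beside a larger background. Of all genes, 12.7% were lower in COL1 in basal-like, 5.44% in HR-positive and 10.5% in HR-negative luminal-like cells. In fibroblast-like and immune-like cells 17.7% and 23.6% were lower. The shares higher in COL1 were 10.5%, 7.09%, 4.97%, 10.2% and 8.74% in the same order of classes. Of the 11 p53 targets, 9 were lower in COL1 in fibroblast-like cells, with a median of -0.44 and the lowest value, -1.54, for the p53 inhibitor Mdm2, and 9 were lower in immune-like cells, with a median of -0.34. In basal-like cells 5 were higher and 2 lower. Ribosome biogenesis genes lower in COL1 numbered 6 of 29 in basal-like, 0 in HR-positive, 5 in HR-negative luminal-like, 7 in fibroblast-like and 9 in immune-like cells. Of 78 mitochondrial ribosomal proteins 18 were lower in fibroblast-like cells, against 17.7% of all genes. In immune-like cells 13 were lower, against 23.6% of all genes, so this count was under the background. Of the 15 other TOP and ribosome-associated genes 3, 5, 1, 5 and 1 were higher in the 5 classes in the same order and 0 lower. The counts of 1 were near the background.

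Clusters left unnamed had shares in between. A cluster of 97 low-depth cells led by Apoc2, Mmp12 and Tyrobp, 81 of them COL1, had a median of 1466 UMIs per cell and a ribosomal protein share of 22.7%. A cluster led by cell division genes had 21.5%, 20.3%, 24.0% and 21.5%, and a cluster of 947 cells led by Krt78, Defb14 and C2cd4b had 20.6%, 19.7%, 21.5% and 21.6%. STIFF was the lowest condition in both. The cluster of 947 cells marked 5 of 10 HR-positive and 5 of 10 HR-negative luminal genes. Its median depth of 26378 UMIs was the highest of the clusters. So was its median scrublet (doublet) score of 0.126, although scrublet called no doublets. Whether this cluster held mixed barcodes was not tested.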

How the data were processed

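The deposited values are UMI counts for each gene in each barcode. Per the submitters' processing notes the build was mm10, and the tools listed there are Seurat 4.2.0 and Cell Ranger 5.0.0. The labels name reagents of different chemistry versions. Each pool had 2 entries with equal gene counts, used once, and the hashtag counts came from the same matrices. Barcodes under 1000 UMIs or 500 genes, or above 15% mitochondrial UMIs, were removed, which left 90.1% and 90.6% of 10615 and 8767, and hashtags were called with HTODemux (Seurat 5.3.0, R 4.3.3) at a quantile of 0.99. Scrublet in scanpy 1.11.5 called 0 doublets and so did not work here; barcodes with both tags (305 and 277) were left out.

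Cells were clustered on 2000 variable genes without the members, with 30 components, 15 neighbours and Leiden resolution 0.5 (igraph 0.11.9, scikit-learn 1.9.0), and clusters were named from marker lists. Counts were summed per class and condition (Python 3.11.15, numpy 2.4.6, pandas 2.3.3). Genes of at least 5 CPM in 1 condition were compared with a pseudocount of 10 CPM at 1.2-fold, in classes of at least 100 cells in both conditions. Classes were compared at 1.5-fold in every condition. A log2 ratio with this pseudocount understates changes of low genes. Intervals (scipy 1.17.1) are Clopper-Pearson for shares and conditional binomial for ratios. Cells were thinned to 5000 UMIs for detection, and a count of 0 allows up to 3 counts. TMM factors came from edgeR 4.0.16, which was used for no test, and plots from matplotlib 3.10.9. The calculations were tested on simulated data.

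The members, lists and tests were chosen with earlier results of these data known. Members named are the 3 highest and 3 lowest per comparison (2 and 2 per class) of at least 50 CPM, every paralogue with its parent, the stalk proteins, Rpl5, Rpl11, Rps27a and Rpsa, the 5 of largest composition ratio, and the highest and lowest gene of each list. Rpl32, Rpl27a and the members shared across channels were named after their values were seen. Rps4l is not analysed here. Alternatives were the tag rule, depth, mitochondrial and doublet filters, pseudocount, scaling and low-value filter.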

Additional observations from a re-analysis of the deposited data

Results flagged for a closer look

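The direction of the ribosomal protein share differed between classes in 2 comparisons. In COL1 over MATR the ratio was 0.947 in HR-negative luminal-like and 0.982 in immune-like cells, but 1.008 in HR-positive luminal-like, 1.014 in basal-like and 1.081 in fibroblast-like cells. In MATR over SOFT it was 0.981 in HR-positive luminal-like cells, but 1.013 in HR-negative luminal-like and 1.027 in immune-like cells. With 1 culture per condition the difference between classes was not tested.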

How the results depend on the processing

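The log2 ratios of the summed share were 0.134 in COL1 over STIFF, 0.046 in MATR over SOFT, 0.012 for COL1 against MATR and -0.075 for STIFF against SOFT. In this order the relative tag rule gave 0.043, 0.020, -0.035 and -0.057, equal weight for 5 classes 0.145, 0.027, 0.0038 and -0.114, and leaving out the highest scrublet scores 0.142, 0.044, 0.020 and -0.078. Since scrublet called 0 doublets, this last alternative only ranks cells by its score and says little about doublets. Leaving out unnamed clusters gave 0.180, 0.037 and -0.097 for COL1 over STIFF, COL1 over MATR and STIFF over SOFT, and leaving out the 8 members that differ between channels gave 0.1302, -0.030 and -0.113. At least 5000 UMIs gave 0.1304 in COL1 over STIFF and 0.0092 in COL1 over MATR. Leaving mitochondrial UMIs out of the total gave 0.044 in MATR over SOFT, 0.0094 for COL1 against MATR and -0.080 for STIFF against SOFT. The sign thus changed only in COL1 over MATR, and the cause was not tested. Equal class weights, unnamed clusters and the 8 members were alternatives chosen after seeing the data. Members past 1.2-fold became 1 in place of 0 in COL1 over STIFF with a pseudocount of 1 CPM and 11 in place of 6 in STIFF over SOFT with TMM scaling. They became 4 in place of 6 in STIFF over SOFT under the relative tag rule, and 7 in place of 8 in COL1 over MATR under that rule, TMM or a pseudocount of 50 CPM. Of 16 class ratios, 9 moved by over 1.5 times under the relative tag rule and 1 with members in the clustering, and 0 changed sign. Only 1 of the 86 members was among the variable genes of that clustering. No paired analysis was possible because there was 1 culture per condition and the labels pair no replicates. Culture spread is unmeasured, untagged barcodes were many, and depth limits Rpl39l and Rpl3l.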
